A study of Mus musculus with 18 samples.

Results

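Retinoic acid is made from retinol in 2 oxidation steps, and the genes described here are 9 that control its level and its reading in the cell: the synthesis genes Rdh10, Aldh1a1 and Aldh1a2, the genes that remove retinoic acid or turn its precursor back, Cyp26b1, Cyp26a1 and Dhrs3, and the receptor genes Rara, Rarb and Rarg. They were taken as a list of named genes out of 24963 measured genes, and the genes were chosen by their role with their KO over WT differences in TPM in these libraries known, so those values are given as a description and without a test. RNA was sequenced from granulosa cells, the steroid-producing cells that line the ovarian follicle, of mice aged 21 to 27 days. All mice had received 5 IU eCG, then 46 h later 5 IU hCG to mimic the LH surge, and cells were taken 8 h after hCG. Each library pooled the granulosa cells of 3 mice, and each group had 3 libraries, 18 in all.

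The KO mice carried a null allele of the progesterone receptor gene in all tissues and not in granulosa cells alone. PRKO KO mice lacked both receptor isoforms (Pgr tm1Bwo), PRAKO KO mice lacked PGR-A (Pgr tm1Omc) and PRBKO KO mice lacked PGR-B (Pgr tm2Omc). Each KO group was compared with the WT group of its own strain, named PRKO WT, PRAKO WT and PRBKO WT. Differences among the WT groups therefore cannot be told apart from differences in colony, genetic background or handling.

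Retinol is oxidised to retinaldehyde, mainly by the membrane enzyme RDH10, and DHRS3 turns retinaldehyde back into retinol. Retinaldehyde dehydrogenases of the ALDH1A family then form retinoic acid irreversibly, and the cytochromes CYP26A1 and CYP26B1 break it down. Retinoic acid binds the receptors RARA, RARB and RARG, which sit on DNA as pairs with an RXR, typically on direct repeats of a short element. Cyp26a1 and Rarb are classic genes switched on by retinoic acid itself, and in the gonads CYP26B1 is best known for shielding germ cells of the fetal testis from retinoic acid.

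RefSeq promoter windows (build GRCm38.p6, 250 bases before and 50 after a start site) were held for 8 of the 9 genes, with no window for Rdh10. They were searched on both strands for direct repeats of a 6-base element, either the AGGTCA form, the form written AGTTCA, the form written GGGTCA or the form written GGTTCA. Repeats spaced by 5 bases (DR5), the arrangement best known for retinoic acid receptors, were in 0.0974% of all 32851 windows and among the 15 windows of the listed genes in 2, those of Cyp26a1 and Rarb. The 2 stretches are shown because they mark the genes whose transcripts were close to 0 in granulosa cells, with the DR5 elements in capitals. Cyp26a1 is read on the plus strand at chr19:37697746-37697822, where its elements match on the opposite strand, and Rarb on the minus strand at chr14:16575483-16575559.
Cyp26a1: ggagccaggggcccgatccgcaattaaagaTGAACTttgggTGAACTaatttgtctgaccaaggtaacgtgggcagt
Rarb: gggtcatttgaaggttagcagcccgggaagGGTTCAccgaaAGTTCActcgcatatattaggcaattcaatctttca

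Repeats spaced by 2 bases (0.268% of all windows) or by 1 base (0.222%) were in none of the 15. The element of the progesterone receptor and other steroid receptors, AGAACA, was in 19.0% of all windows and in 1 window of the listed genes, that of the Dhrs3 start at chr4:144892827. Its inverted form, GAACA and TGTTC with 3 bases between them, was in 0.0578% of all windows and in none of the 15. A further pair of windows is shown whole because Cyp26b1 and the main transcript of Rarg lay higher in KO without overlap in both PRKO and PRAKO: that of Cyp26b1 (minus strand, chr6:84593761-84594060) and that of the internal start of Rarg (minus strand, chr15:102246451-102246750). Capitals mark the 50 bases from the window's start site on. For Rarg this is the first base that GENCODE gives the transcript, and for Cyp26b1 it lies 64 bases upstream of it. None of the repeats above was found in either window.
Cyp26b1: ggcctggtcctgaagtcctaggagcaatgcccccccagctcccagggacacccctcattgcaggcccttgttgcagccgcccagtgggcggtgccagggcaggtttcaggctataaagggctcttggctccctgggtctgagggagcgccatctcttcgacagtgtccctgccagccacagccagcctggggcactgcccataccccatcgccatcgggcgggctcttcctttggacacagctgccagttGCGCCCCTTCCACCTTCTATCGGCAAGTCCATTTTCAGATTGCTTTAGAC
Rarg: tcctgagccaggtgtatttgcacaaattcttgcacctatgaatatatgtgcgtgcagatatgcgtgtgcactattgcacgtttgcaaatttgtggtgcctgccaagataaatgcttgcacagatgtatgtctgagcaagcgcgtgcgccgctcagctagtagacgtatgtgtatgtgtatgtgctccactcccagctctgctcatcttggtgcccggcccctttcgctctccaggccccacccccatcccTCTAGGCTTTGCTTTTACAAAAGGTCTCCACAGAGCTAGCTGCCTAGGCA

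Across the 18 libraries the listed genes covered a wide span of levels. By mean TPM (a gene's length-corrected share of all transcripts in a library), Aldh1a1 was highest at 21.8 and Rara next at 20.1. Rarg (10.2), Rdh10 (9.23), Dhrs3 (7.16) and Aldh1a2 (4.84) were intermediate, and Cyp26b1 was at 2.49. Cyp26a1 (0.360) and Rarb (0.261) were lowest. Aldh1a1 and Rara overlapped at the top in PRKO KO, PRAKO KO, PRBKO KO and PRBKO WT, whereas in PRKO WT and PRAKO WT every Aldh1a1 value exceeded every Rara value. Cyp26b1 held the sixth place in PRKO KO and PRAKO KO and the seventh in the other groups. In PRAKO KO its 3 values lay above all 3 of Aldh1a2, and in PRAKO WT they lay below.

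**Figure D1:**
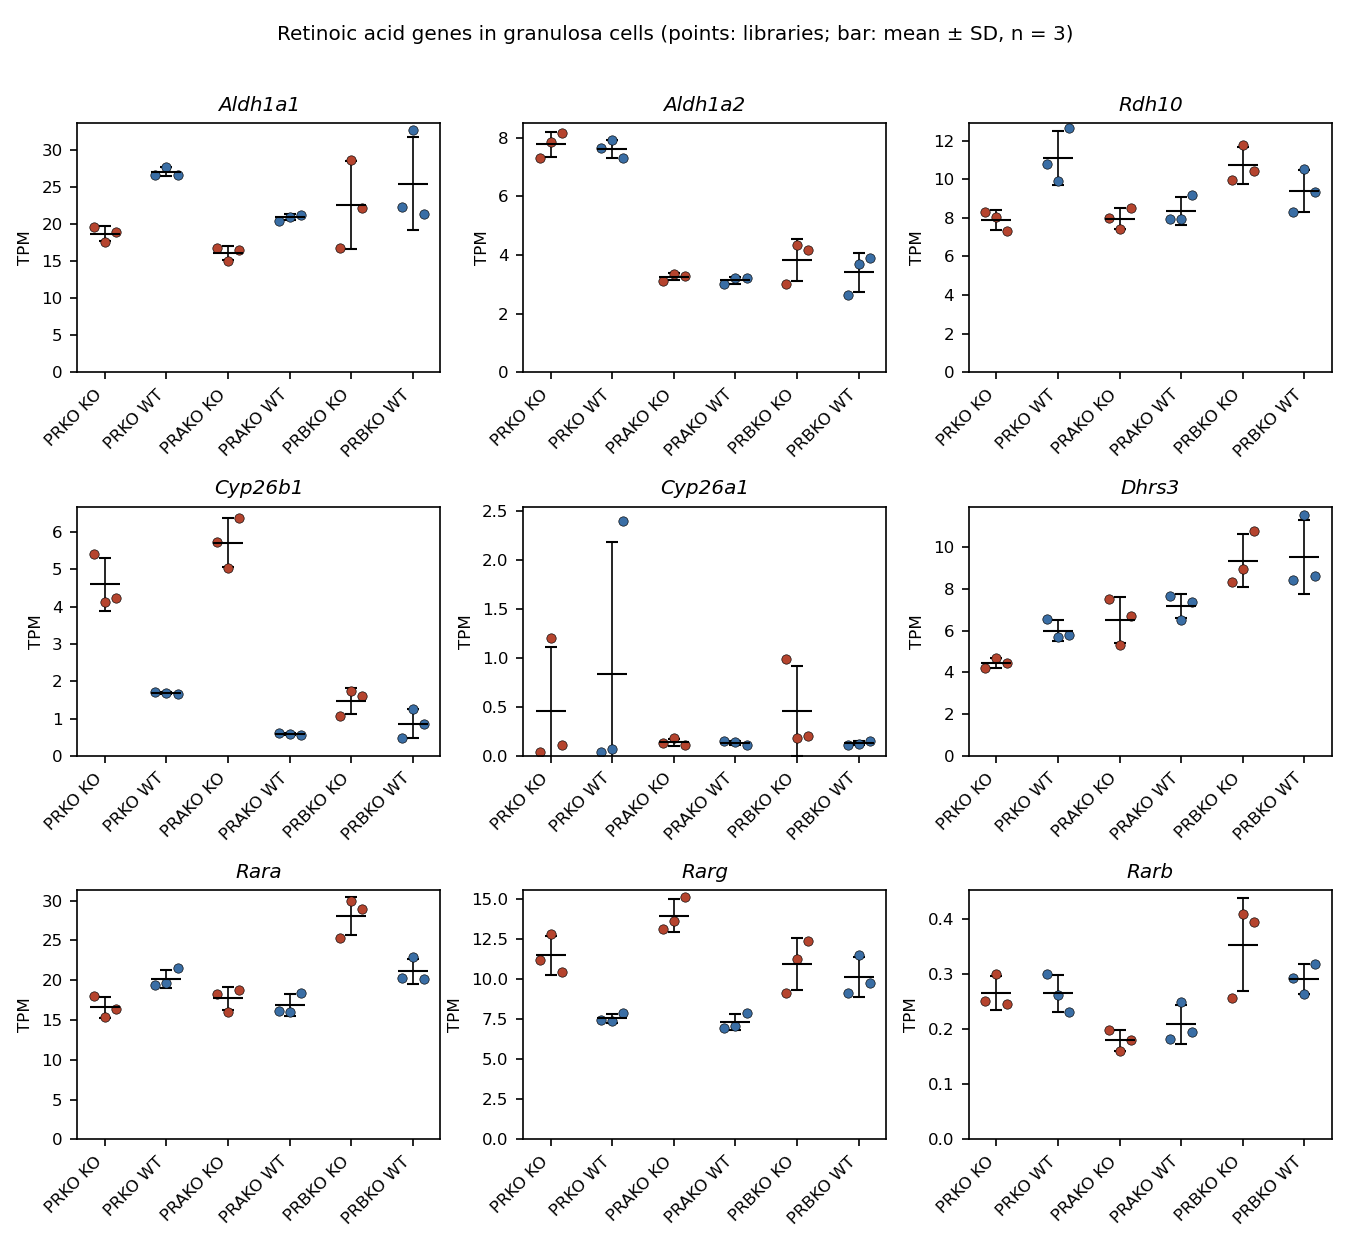
Transcript level (TPM, linear axis from 0) of the 9 retinoic acid genes by group, with points for single libraries and bars for mean ± SD (n = 3). Cyp26b1 and Rarg stood higher in PRKO KO and PRAKO KO than in the WT group of the same strain without overlap, and Aldh1a1 stood lower.

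A gene entered a strain's comparison if at least 3 of its 6 libraries reached 1 TPM, which 7 of the 9 genes did in every strain. Fold changes are differences in mean log2(TPM + 0.5) between KO and WT with the standard error of limma's fit across all tested genes, and understate the change of low genes. The limits used for calling a gene were an adjusted p of at most 0.01 and a log2 fold change of at least 1 in size. In PRKO, 1 of the 7 passed both limits, where 2.14% of all 13910 tested genes did. In PRAKO, 1 of the 7 passed, where 2.05% of 13910 tested genes did. In PRBKO 0 of the 7 passed, where 0.133% of 14329 tested genes did. An unadjusted p under 0.05 in limma's fit was found there for 2 of the 7, and for 4454 of the 14329. Since the list was drawn up from this contrast, nothing is read from these counts. The median log2 fold change of all tested genes was -0.10 for the PRKO strain, 0.22 for PRAKO and 0.22 for PRBKO, so a value near 0.22 in the last 2 strains is the general shift.

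The gene with the largest difference was Cyp26b1 (gene 232174, chromosome 6, 84571414 to 84593908), whose product breaks down retinoic acid. It was at 5.41, 4.14 and 4.24 TPM in PRKO KO, against 1.71, 1.68 and 1.67 TPM in PRKO WT. In the PRAKO strain its values were 5.73, 5.05 and 6.37 TPM in KO and 0.619, 0.590 and 0.557 TPM in WT. KO and WT libraries did not overlap in either strain, and all 3 PRAKO WT libraries were below the 1 TPM that the filter asked for, so that Cyp26b1 entered that comparison only through the KO libraries. The log2 fold change was 1.21 ± 0.12 in PRKO (2.73-fold by means) and 2.51 ± 0.13 in PRAKO (9.72-fold by means). Without PRKO KO replicate 2 and PRKO WT replicate 3, the libraries with the highest oviduct gene sums in this strain, the PRKO value was 1.27.

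The PRBKO strain differed from these in that its groups overlapped. Cyp26b1 was at 1.07, 1.75 and 1.60 TPM in PRBKO KO, against 0.470, 1.26 and 0.859 TPM in PRBKO WT, a log2 fold change of 0.56 ± 0.25. Set against the median of all genes, the log2 differences were 1.31 in PRKO, 2.29 in PRAKO and 0.34 in PRBKO. KO levels of PRKO and PRAKO overlapped, at 4.60 ± 0.70 and 5.72 ± 0.66 TPM (SD, n = 3 each), while WT levels did not, at 1.69 ± 0.023 and 0.589 ± 0.031 TPM. In every group at least 98.7% of the gene's TPM was on 1 transcript.

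Cyp26a1 (gene 13082, chromosome 19, 37697738 to 37701536), which encodes the other main retinoic acid hydroxylase, was at most 0.205 TPM in 15 of the 18 libraries and did not enter the comparisons. The exceptions were a single library in each of 3 groups. It read 0.0447, 1.21 and 0.116 TPM in PRKO KO and 0.0379, 0.0734 and 2.40 TPM in PRKO WT. In PRBKO KO it read 0.993, 0.183 and 0.205 TPM, against 0.114, 0.121 and 0.157 TPM in PRBKO WT. PRAKO KO (0.107 to 0.179 TPM) and PRAKO WT (0.111 to 0.152 TPM) held no such library. The same 3 libraries were the highest for a list of 8 genes of the oviduct epithelium, a list written after these values were seen. Its sum was 18.4, 39.0 and 17.2 TPM in PRKO KO, 19.7, 21.7 and 93.4 TPM in PRKO WT, and 53.1, 24.8 and 24.1 TPM in PRBKO KO. All 3 libraries of the other groups lay between 19.4 and 32.0 TPM, and no gene of the list was at 0 throughout a group. The oviduct glycoprotein gene Ovgp1 was at 71.2 TPM in PRKO WT replicate 3 and 19.2 TPM in PRKO KO replicate 2, against 1.55 to 5.88 TPM in the other 4 PRKO libraries. The part of such tissue in the Cyp26a1 values was not tested.

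Dhrs3 (gene 20148, chromosome 4, 144892534 to 144928209), whose enzyme returns retinaldehyde to retinol, was lower in PRKO KO. Its values were 4.19, 4.66 and 4.47 TPM in PRKO KO, against 6.56, 5.67 and 5.78 TPM in PRKO WT, a log2 fold change of -0.39 ± 0.09 with no overlap. The groups overlapped in PRAKO (6.51 ± 1.12 TPM in KO and 7.18 ± 0.58 TPM in WT) and in PRBKO (9.34 ± 1.27 TPM in KO and 9.52 ± 1.77 TPM in WT). The transcript that starts at chr4:144892827 differed more than the gene as a whole in PRKO. It was at 0.511, 0.462 and 0.632 TPM in PRKO KO and 2.15, 1.17 and 0.882 TPM in PRKO WT, and its share of the gene's TPM was 12.0% in PRKO KO and 23.3% in PRKO WT. The same transcript was at 1.51, 1.51 and 1.32 TPM in PRAKO KO and 2.49, 1.71 and 1.78 TPM in PRAKO WT, without overlap. Its share was 22.2% in PRAKO KO and 27.8% in PRAKO WT. In PRBKO its levels overlapped, with a share of 15.8% in KO and 22.2% in WT. The transcript starting at 144893077 overlapped between the groups, with 3.15 ± 0.74 TPM in PRKO KO and 3.49 ± 0.82 TPM in PRKO WT.

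The synthesis genes were lower or level in KO. Aldh1a1 (gene 11668, chromosome 19, 20492583 to 20643463), which encodes the retinaldehyde dehydrogenase with the highest level in these cells, was at 19.7, 17.7 and 18.9 TPM in PRKO KO, against 26.7, 27.8 and 26.7 TPM in PRKO WT. In PRAKO it was at 16.8, 15.1 and 16.6 TPM in KO and 20.5, 21.1 and 21.3 TPM in WT. KO lay below WT without overlap in both strains, by a log2 fold change of -0.52 ± 0.07 in PRKO and -0.36 ± 0.07 in PRAKO. In PRBKO the groups overlapped, with 22.6 ± 5.96 TPM in KO and 25.5 ± 6.32 TPM in WT. Aldh1a1 has a close copy, Aldh1a7, between which reads can be split in counting. Aldh1a7 was at 0.838 to 1.02 TPM in PRKO KO and 1.25 to 1.69 TPM in PRKO WT, and the part of read splitting in the Aldh1a1 values was not tested.

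Aldh1a2 (gene 19378, chromosome 9, 71215789 to 71296243), which encodes the enzyme that makes most retinoic acid in the embryo, overlapped between KO and WT in all strains. It averaged 7.78 ± 0.43 TPM in PRKO KO and 7.62 ± 0.31 TPM in PRKO WT. In PRAKO it averaged 3.25 ± 0.12 TPM in KO and 3.14 ± 0.11 TPM in WT, and in PRBKO 3.84 ± 0.71 TPM in KO and 3.41 ± 0.67 TPM in WT. The log2 fold changes of 0.03 ± 0.08, 0.04 ± 0.10 and 0.15 ± 0.19, in the same order of strains, were within 1 standard error of 0.

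Rdh10 (gene 98711, chromosome 1, 16105882 to 16132550), the gene of the first oxidation step, was at 8.32, 8.02 and 7.32 TPM in PRKO KO, against 10.8, 9.91 and 12.6 TPM in PRKO WT. The groups did not overlap, and the log2 fold change was -0.46 ± 0.11. They overlapped in PRAKO, with 7.96 ± 0.54 TPM in KO and 8.35 ± 0.71 TPM in WT, and in PRBKO, with 10.7 ± 0.96 TPM in KO and 9.39 ± 1.11 TPM in WT. On TPM as deposited, Rdh10, Aldh1a1 and Dhrs3 all lay lower in KO without overlap in PRKO, beside Rara. That does not set PRKO apart, since overlap on TPM without rescaling moves with the general shift of a strain. The median log2 fold change of all tested genes was -0.10 in PRKO but 0.22 in PRAKO. Under the alternatives listed below, Rdh10 ranged from -0.54 to -0.36 in PRKO and from -0.27 to 0.0009 in PRAKO. Dhrs3 ranged from -0.45 to -0.29 and from -0.34 to -0.01, and Aldh1a1 from -0.55 to -0.41 and from -0.57 to -0.32. Libraries without overlap, in either direction, were seen for 6 of 7 listed genes in PRKO, 3 of 7 in PRAKO and 1 of 7 in PRBKO, where 31.9%, 51.3% and 34.8% of all tested genes had them in the same order.

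**Figure D2:**
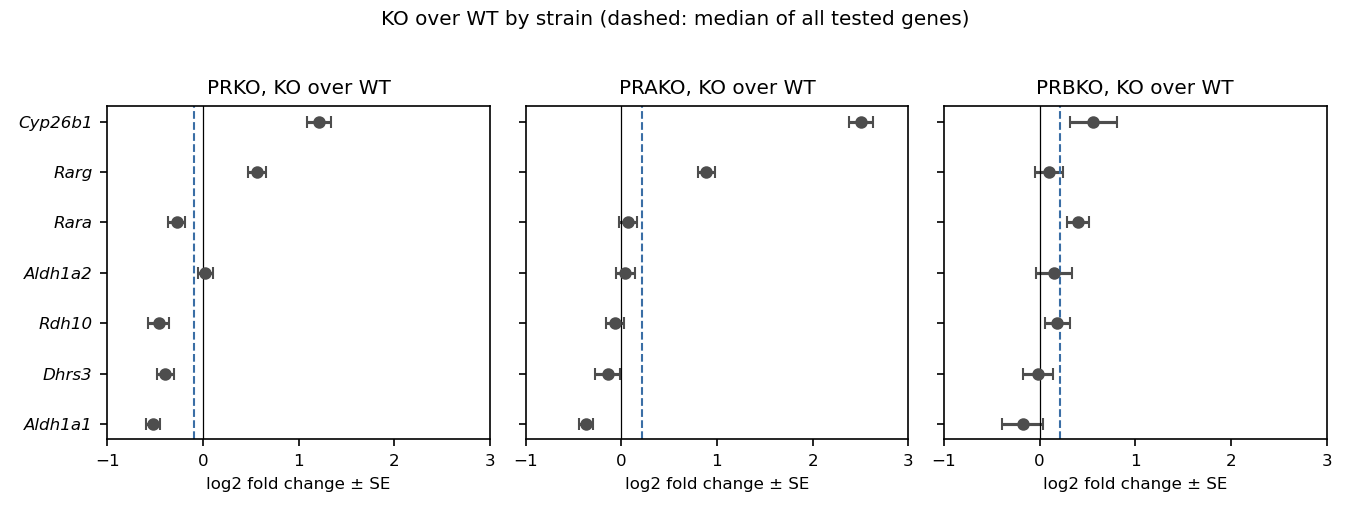
Log2 fold change, KO over WT, with standard error for the 7 listed genes that entered the comparison in each strain, given as a description. The dashed line is the median of all tested genes (-0.10, 0.22 and 0.22), and Cyp26b1 and Rarg lay right of it in PRKO and PRAKO.

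Among the receptor genes, Rarg (gene 19411, chromosome 15, 102234938 to 102257522) followed the direction of Cyp26b1. It was at 11.2, 12.9 and 10.4 TPM in PRKO KO, against 7.45, 7.39 and 7.88 TPM in PRKO WT. In PRAKO it was at 13.2, 13.7 and 15.1 TPM in KO and 6.97, 7.10 and 7.89 TPM in WT. Neither strain showed overlap, and the log2 fold change was 0.57 ± 0.09 in PRKO and 0.89 ± 0.09 in PRAKO. The median of all tested genes was -0.10 in PRKO and 0.22 in PRAKO, so part of the wider PRAKO value is the general shift. Under the alternatives Rarg ranged from 0.49 to 0.67 in PRKO and from 0.69 to 0.94 in PRAKO. PRBKO groups overlapped at 11.0 ± 1.65 TPM in KO and 10.1 ± 1.24 TPM in WT.

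The Rarg difference lay mainly in the transcript whose first base is the internal start, chr15:102246500, printed above. It was at 9.51, 10.0 and 8.74 TPM in PRKO KO, against 5.58, 5.88 and 6.19 TPM in PRKO WT, and at 10.5, 10.5 and 11.2 TPM in PRAKO KO, against 4.82, 4.73 and 5.59 TPM in PRAKO WT. By means it was 1.60-fold higher in PRKO KO and 2.12-fold higher in PRAKO KO. The transcript from the upstream start at 102257517 was 1.23-fold and 1.44-fold higher by means in these strains and overlapped in PRKO, with 2.08 ± 0.66 TPM in KO and 1.69 ± 0.18 TPM in WT. The internal-start transcript held 68.9% to 81.9% of the gene's TPM over the 6 groups. How Salmon divides reads between transcripts that share most exons carries an error that the deposited values do not give.

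Rara (gene 19401, chromosome 11, 98927800 to 98974942) was the receptor gene with the highest level and moved little. It was at 18.04, 15.4 and 16.4 TPM in PRKO KO, against 19.4, 19.7 and 21.5 TPM in PRKO WT. In PRBKO it was at 25.3, 29.9 and 29.0 TPM in KO and 20.3, 22.9 and 20.1 TPM in WT. KO thus lay below WT in PRKO (log2 fold change -0.28 ± 0.09) and above WT in PRBKO (0.40 ± 0.11), without overlap in either, while the groups overlapped in PRAKO at 17.7 ± 1.47 TPM in KO and 16.9 ± 1.37 TPM in WT. Against the median of all genes the log2 differences were -0.18 in PRKO and 0.18 in PRBKO. The transcript that starts at chr11:98960412 did not overlap between the PRKO groups, with 4.48 ± 0.78 TPM in PRKO KO and 6.89 ± 0.45 TPM in PRKO WT. The transcript from 98937698 overlapped there, with 10.4 ± 0.48 TPM in PRKO KO and 11.2 ± 1.43 TPM in PRKO WT.

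Rarb (gene 218772, chromosome 14, 16430839 to 17082331), the receptor gene that retinoic acid itself induces in many cells, lay between 0.160 and 0.410 TPM in all 18 libraries and did not enter the comparisons. It averaged 0.266 ± 0.030 TPM in PRKO KO and 0.265 ± 0.034 TPM in PRKO WT, 0.180 ± 0.020 TPM in PRAKO KO and 0.209 ± 0.035 TPM in PRAKO WT. In PRBKO it averaged 0.353 ± 0.085 TPM in KO and 0.291 ± 0.027 TPM in WT, and the groups overlapped in every strain. Together with the 15 low libraries of Cyp26a1, the listed genes with a DR5 in the window searched were thus those close to 0, which says nothing of whether a receptor bound there.

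The WT libraries of the strains were compared with each other in 1 fit of all 18 libraries, a contrast that did not itself serve to choose the genes. The same WT libraries are, however, the base of the fold changes above. These p-values are therefore not independent of the choice and are a description. Cyp26b1 was lower in PRAKO WT (0.589 ± 0.031 TPM) than in PRKO WT (1.69 ± 0.023 TPM), with a log2 difference of -1.01 ± 0.18 and limma adjusted p = 0.00108. It was lower in PRBKO WT (0.864 ± 0.396 TPM) than in PRKO WT by a log2 difference of -0.72 ± 0.18 (limma adjusted p = 0.00964), under the fold limit. The wider KO over WT difference of Cyp26b1 in PRAKO than in PRKO stood beside the lower WT level in PRAKO, and both rest on the same WT libraries. Without PRKO WT replicate 1 or PRAKO WT replicate 3 the first difference was -0.998 or -0.985 and short of the limit, as it was with a pseudocount of 1 (-0.76) or size factors (-0.98).

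Aldh1a2, which overlapped between KO and WT in every strain, separated the WT groups. Its values were 3.01, 3.21 and 3.21 TPM in PRAKO WT and 2.65, 3.68 and 3.89 TPM in PRBKO WT, against 7.64, 7.93 and 7.30 TPM in PRKO WT. The log2 differences from PRKO WT were -1.16 ± 0.13 in PRAKO WT (limma adjusted p = 9.13e-06) and -1.07 ± 0.13 in PRBKO WT (limma adjusted p = 2.07e-05), both called. Without PRBKO WT replicate 1 the PRBKO difference was -0.92 and was no longer called, nor was it with a pseudocount of 1 (-0.98).

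These WT differences stood beside others. Of 7 tested listed genes, 2 were called between PRAKO WT and PRKO WT, where 3.51% of 14893 tested genes were, and 1 between PRBKO WT and PRKO WT, where 3.61% were. Between PRBKO WT and PRAKO WT 0 of 7 were called by limma, where 0.128% of all tested genes were. An unadjusted p under 0.05 in that limma fit was found for 3 of the 7, and for 7325 of 14893 tested genes. Dhrs3 was higher in PRBKO WT (9.52 ± 1.77 TPM) than in PRKO WT (6.002 ± 0.48 TPM) by a log2 difference of 0.61 ± 0.14 (limma adjusted p = 0.00382), under the fold limit.

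Endothelial markers were among several lists that moved in the same direction as Aldh1a2. Their sum over 10 genes was 47.4 to 53.5 TPM in PRAKO WT and 39.0 to 49.6 TPM in PRBKO WT, against 83.8 to 88.6 TPM in PRKO WT. Of the 10 markers, 6 were called lower in PRAKO WT and 9 in PRBKO WT, and none was at 0 throughout a group. The 8 fibroblast markers summed to 92.8 to 104 TPM in PRAKO WT, 94.1 to 103 TPM in PRBKO WT and 146 to 195 TPM in PRKO WT. The 8 smooth muscle markers summed to 41.1 to 43.1, 30.9 to 38.3 and 59.2 to 66.8 TPM in the same order. For 7 theca markers the sums were 32.3 to 35.7, 35.0 to 45.5 and 51.7 to 69.7 TPM. The median log2 difference of tested theca markers from PRKO WT was 0.04 in PRAKO WT and 0.31 in PRBKO WT. Lymphatic and surface epithelium sums did not lie lower than in PRKO WT. In whole collections of cells, fewer cells of a type and less RNA per cell cannot be told apart, and the part of these cells in the Aldh1a2 difference was not tested. Within the PRAKO strain the endothelial sum was 25.1 to 31.3 TPM in KO and 47.4 to 53.5 TPM in WT, but only 1 of 8 tested markers, Cdh5, was called lower, and the median log2 fold change of the tested markers was -0.16. Cdh5 averaged 9.33 TPM in PRAKO KO and 28.0 TPM in PRAKO WT, which is most of the difference in the sum. Cdh5 is named after its values were seen.

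**Figure D3:**
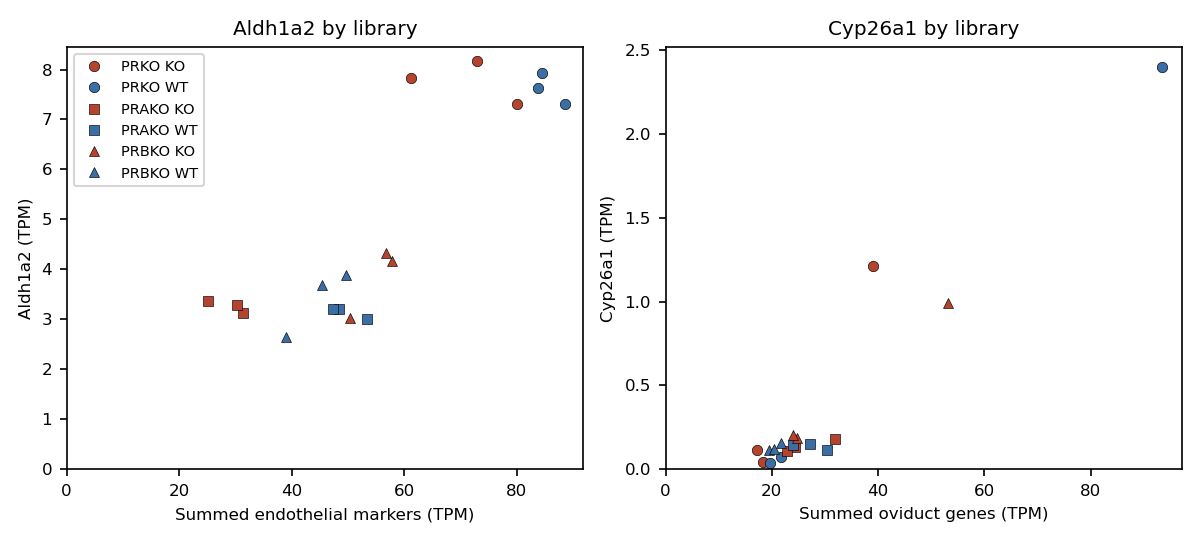
Left, Aldh1a2 against the summed TPM of 10 endothelial markers, and right, Cyp26a1 against the summed TPM of 8 oviduct genes, each point a library of the named group. The 6 PRKO-strain libraries stand apart at high Aldh1a2, and the 3 libraries with the highest oviduct sums are those with the highest Cyp26a1.

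Granulosa markers were present throughout, with a sum over 12 genes of 2191 to 2462 TPM in PRKO KO and 2257 to 2365 TPM in PRKO WT. In PRAKO it was 2836 to 3177 TPM in KO and 2144 to 2338 TPM in WT, and in PRBKO 2931 to 3502 TPM in KO and 2808 to 3856 TPM in WT. The sum rests mostly on Inha, which averaged 1893 TPM over the 18 libraries and is named after its values were seen. Between KO and WT, 1 of 11 tested markers was called lower in PRKO and 0 of 12 were called in PRAKO or PRBKO. Against PRKO WT, 2 of 12 were called higher in PRAKO WT and 3 of 12 in PRBKO WT. Summed over its transcripts, Pgr did not fall in KO, averaging 2.03 ± 0.60 TPM in PRKO KO and 1.95 ± 0.19 TPM in PRKO WT, and 10.7 ± 2.08 TPM in PRAKO KO and 0.942 ± 0.139 TPM in PRAKO WT. A total over all transcripts of an altered allele cannot check the loss of a receptor isoform, so the groups rest on the labels.

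The rest of the pathway was described with 4 lists of 76 genes: carriers and binding proteins, other enzymes, partners of the receptors, and genes known to respond to retinoic acid in some tissue. The lists were also written with earlier results of these data known, so their counts, calls and p-values are a description. In PRKO 44 of them were tested, 2 were called higher and 0 lower. Their median log2 fold change was -0.07, beside -0.10 for all tested genes. Without PRKO KO replicate 2 and PRKO WT replicate 3, neither Rbp4 (1.28) nor Adh7 (1.49) was called and Cyp1b1 was (-1.07). In PRAKO 44 were tested, 3 were called higher and 0 lower, with a median of 0.21 beside 0.22. In PRBKO 46 were tested and 0 were called by limma, with a median of 0.23 beside 0.22. An unadjusted p under 0.05 in limma's fit was found there for 8 of the 46, and for 4454 of 14329 tested genes. Of all tested genes, 0.316% were called higher in PRKO, 0.841% in PRAKO and 0.0907% in PRBKO.

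**Figure D4:**
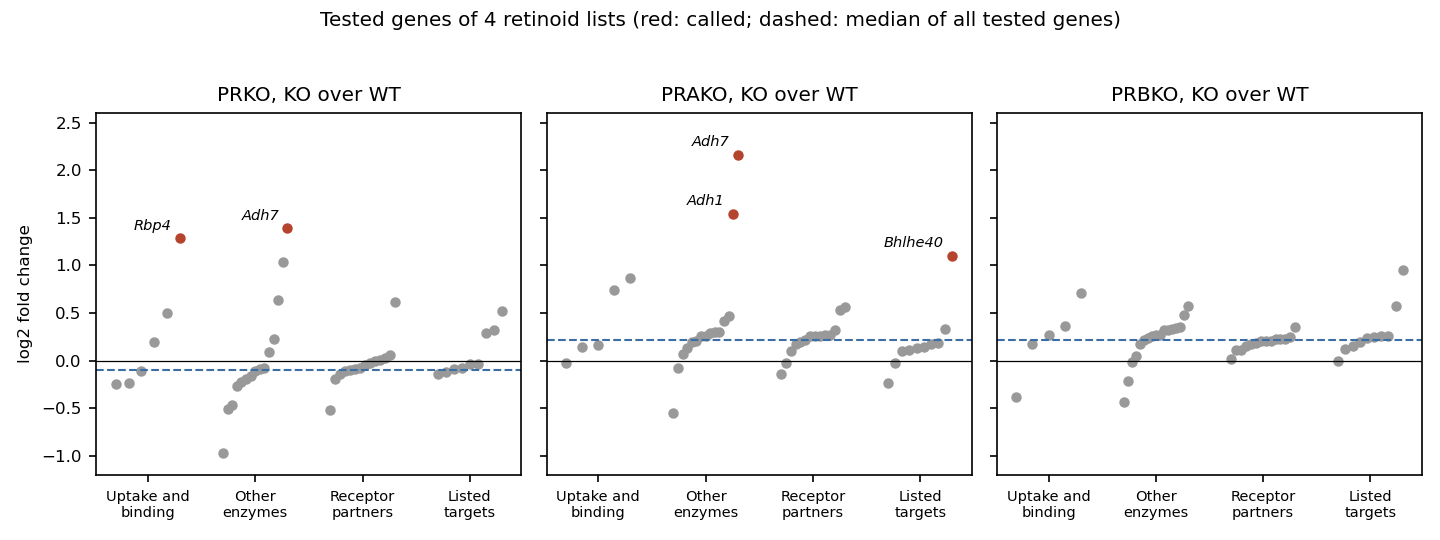
Log2 fold change, KO over WT, of each tested gene of the 4 lists in each strain, with called genes in red and named. All called genes lay above 1 in the fit shown, and the dashed line is the median of all tested genes. Bhlhe40 in PRAKO, drawn at 1.10, was at 0.89 and not called with size factors or rescaled to protein-coding genes.

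Of the carriers and binding proteins, 6 of 12 were tested in PRKO and 5 in each of PRAKO and PRBKO. Rbp4, which carries retinol in blood, rose in PRKO: it was at 13.1, 12.5 and 11.5 TPM in PRKO KO, against 5.43, 4.14 and 4.82 TPM in PRKO WT. The log2 fold change was 1.29 ± 0.11 (limma adjusted p = 0.000715). In PRAKO Rbp4 was at 4.78, 6.46 and 5.85 TPM in KO and 3.65, 2.26 and 3.81 TPM in WT, with a log2 fold change of 0.75 ± 0.19 that was not called (limma adjusted p = 0.0225). PRBKO groups overlapped at 8.94 ± 4.54 TPM in KO and 4.98 ± 1.53 TPM in WT.

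Crabp2, which brings retinoic acid to its receptors in the nucleus, was the most abundant of this list. It was at 113, 122 and 108 TPM in PRKO KO, against 77.2, 76.5 and 88.7 TPM in PRKO WT, and at 59.1, 58.2 and 64.4 TPM in PRAKO KO, against 32.9, 31.5 and 34.3 TPM in PRAKO WT. KO and WT did not overlap in either strain, but the log2 fold changes of 0.50 ± 0.09 and 0.87 ± 0.07 stayed under the fold limit (limma adjusted p = 0.0155 in PRKO and 0.000154 in PRAKO). The PRKO effect minus the PRAKO effect was -0.37 on the log2 scale, or -0.06 against the median of all genes. Crabp2 was also lower in PRAKO WT than in PRKO WT, by a log2 difference of -1.28 ± 0.10 (limma adjusted p = 2.81e-07). Fabp5, the other carrier of retinoic acid to the nucleus, lay between 16.7 and 32.4 TPM, and Stra6, the cell-surface retinol transporter, between 1.82 and 8.07 TPM. Neither was called between KO and WT in any strain, although Stra6 was higher in PRAKO WT than in PRKO WT by a log2 difference of 1.10 (limma adjusted p = 1.51e-05).

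Of the 27 other enzymes, 15 were tested in PRKO, 15 in PRAKO and 17 in PRBKO. Alcohol dehydrogenases that can oxidise retinol made up the calls. Adh7 was at 19.9, 15.0 and 27.1 TPM in PRKO KO, against 8.66, 7.28 and 6.25 TPM in PRKO WT. In PRAKO it was at 19.4, 23.0 and 21.5 TPM in KO and 4.39, 4.84 and 3.89 TPM in WT. Adh7 rose by a log2 fold change of 1.39 ± 0.21 in PRKO (limma adjusted p = 0.00817) and of 2.16 ± 0.10 in PRAKO (limma adjusted p = 1.34e-05). Groups overlapped in PRBKO at 11.9 ± 1.72 TPM in KO and 9.47 ± 2.53 TPM in WT. The PRKO call was near the limit and was lost when any single PRKO library but KO replicate 2 was left out.

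Adh1 was at 81.1, 70.3 and 113 TPM in PRKO KO, against 44.3, 39.2 and 42.0 TPM in PRKO WT. In PRAKO it was at 33.1, 34.9 and 36.0 TPM in KO and 11.2, 11.0 and 12.6 TPM in WT. Adh1 rose in PRAKO by 1.54 ± 0.08 (limma adjusted p = 1.64e-05), whereas in PRKO its log2 fold change of 1.04 ± 0.17 just missed the limit (limma adjusted p = 0.0101). As for Cyp26b1, Crabp2 and Aldh1a2, the level of Adh1 in PRAKO WT was below that in PRKO WT, by a log2 difference of -1.81 ± 0.18 (limma adjusted p = 3.31e-06).

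Cyp1b1, a cytochrome that can oxidise retinol and estradiol, was at 27.1, 30.8 and 25.04 TPM in PRKO KO, against 53.4, 57.0 and 52.4 TPM in PRKO WT. Its log2 fold change of -0.97 ± 0.09 (limma adjusted p = 0.0011) did not reach the fold limit. In PRAKO it was at 43.7 ± 5.56 TPM in KO and 64.0 ± 8.12 TPM in WT, -0.55 ± 0.12 on the log2 scale (limma adjusted p = 0.0144). Cyp1b1 overlapped in PRBKO, with 92.2 ± 22.0 TPM in KO and 75.2 ± 11.1 TPM in WT. The abundant Adh5 (51.4 to 90.0 TPM), Dgat1, which can store retinol as ester (15.4 to 29.8 TPM), and the retinaldehyde reductase gene Rdh11 (13.6 to 22.7 TPM) were not called in any strain.

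**Figure D5:**
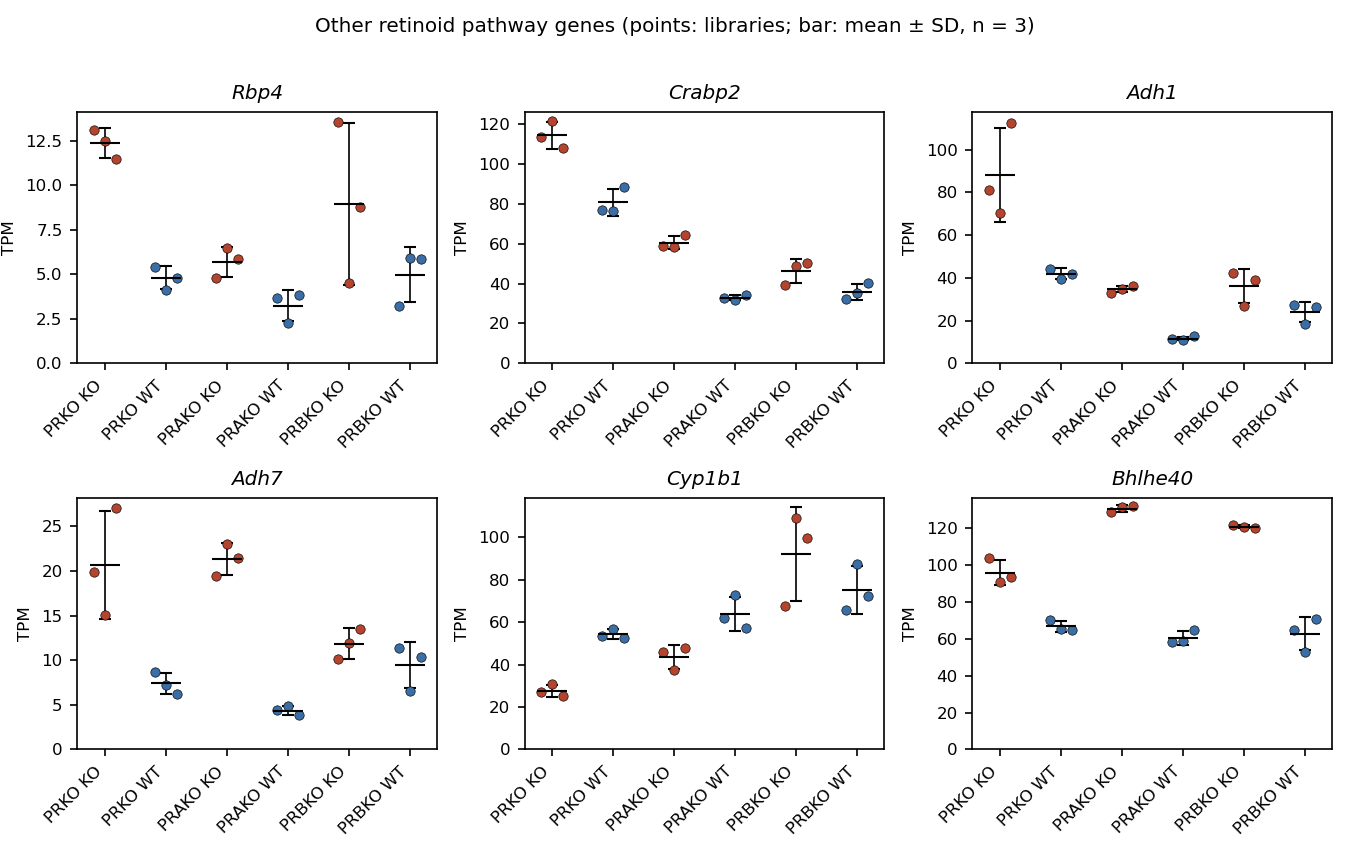
TPM of 6 other retinoid pathway genes by group, with points for single libraries and bars for mean ± SD (n = 3). Rbp4, Adh1, Adh7 and, on TPM as deposited, Bhlhe40 were each called higher in PRKO or PRAKO, and the levels of Crabp2 and Adh1 also differed between the strains' WT groups.

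None of the 16 receptor partners was called in any strain, 14 being tested in each. An unadjusted p under 0.05 in limma's fit was found for 2 in PRKO, 8 in PRAKO and 1 in PRBKO. Among all tested genes it was found for 3447 of 13910, 6886 of 13910 and 4454 of 14329, in the same order. The corepressor genes Ncor1 (44.6 to 88.5 TPM) and Nrip1 (18.1 to 45.1 TPM) and the orphan receptor gene Nr2f6 (16.6 to 25.1 TPM) were among those with the highest levels. Rxra, a main partner of the receptors, lay between 7.05 and 11.8 TPM, and Rxrb between 13.6 and 23.9 TPM.

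Of 21 listed target genes, 9 were tested in PRKO and 10 in each of PRAKO and PRBKO. The transcriptional repressor gene Bhlhe40 was at 129, 131 and 132 TPM in PRAKO KO, against 58.2, 58.7 and 64.9 TPM in PRAKO WT, and rose by 1.10 ± 0.07 on the log2 scale (limma adjusted p = 3.54e-05). With size factors or rescaled to protein-coding genes the value was 0.89 and Bhlhe40 was not called. In PRKO it was at 104, 90.9 and 93.2 TPM in KO and 70.2, 65.1 and 64.9 TPM in WT, and in PRBKO at 122, 121 and 120.2 TPM in KO and 64.8, 52.9 and 70.6 TPM in WT. KO lay above WT without overlap in all strains, but the log2 fold changes of 0.52 ± 0.08 in PRKO (limma adjusted p = 0.00871) and 0.95 ± 0.12 in PRBKO (limma adjusted p = 0.00975) were under the fold limit. Zfp703 (25.9 to 55.4 TPM), Rarres2 (24.6 to 50.4 TPM), Ccdc80 (6.10 to 9.04 TPM) and Meis2 (5.20 to 9.33 TPM) were not called in any strain. Stra8, the germ cell gene through which retinoic acid starts meiosis, reached at most 0.170 TPM, and Cdx1 at most 0.137 TPM.

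Among 12480 other genes with a mean of at least 2 TPM, those whose log2(TPM + 0.5) over the 18 libraries was most like that of Cyp26b1 were Rpp25 (Pearson r = 0.964), Rai14 (0.955), Doc2b (0.946), Fzd4 (0.944) and Timp1 (0.942). These values are a description, since libraries of a group share their genotype and the genes share each library's composition. With the group means removed, r fell to 0.173 for Rpp25 and 0.398 for Rai14 and was 0.589 for Doc2b, 0.648 for Fzd4 and 0.642 for Timp1, so most of the likeness of the first pair lay between groups. Rarg was most like Sox12 (0.949) and Hdac5 (0.942), and among the genes most like Rara was Fbxo11 (0.974). Aldh1a2 was most like Abcc9 (0.978) and Ndrg2 (0.977), Aldh1a1 most like Spsb1 (0.879) and Pcca (0.862), Rdh10 most like Kyat1 (0.898) and Pfkl (0.894), and Dhrs3 most like Abcd2 and Paqr8 (0.956 each).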

How the data were processed

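RNA-seq of granulosa cells was analysed in 18 libraries, each from the pooled cells of 3 mice, in 6 groups of 3 given by the labels. The study's methods state more biological replicates per genotype than these 3. The values deposited by the authors are TPM per RefSeq transcript. According to the study's methods, reads were trimmed with AdapterRemoval and quantified with Salmon against GENCODE M25 on GRCm38.p6, whereas the deposited transcript names are RefSeq names. TPM is a share of each library and keeps no depth. The study's methods give a range of depth for the granulosa cell libraries, but the depth of each library is unknown and no counting interval is given. A change in a few abundant RNAs shifts all other values. The transcript Rn7s2 held 24.1% to 47.8% of TPM and protein-coding genes 37.3% to 61.2%. The protein-coding share did not overlap between KO and WT in any strain. It was 37.3% to 39.1% in PRKO KO and 39.3% to 44.5% in PRKO WT. In PRAKO it was 44.7% to 47.8% in KO and 37.7% to 40.7% in WT. In PRBKO it was 50.9% to 61.2% in KO and 42.7% to 47.4% in WT. Overlaps given above are on TPM without rescaling, and the part of this share in each strain's general shift was not tested.

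Of 42251 transcripts, 42072 were matched by accession to RefSeq genes and summed into 24963 genes, and 179 were left out. Transcript start positions were taken from the GENCODE annotation of the same build by RefSeq accession. Genes with at least 1 TPM in 3 libraries were tested with limma 3.58.1 (trend, R 4.3.3) on log2(TPM + 0.5), with Benjamini-Hochberg adjustment over all genes tested. Calls needed an adjusted p no higher than 0.01 together with a log2 fold change of 1 or more in size. KO was compared with WT among the 6 libraries of a strain, and WT groups in a fit of all 18. The test was checked on simulated data. P-values weigh a difference in group means against limma's moderated spread between libraries of a group. In the WT fit that spread is shared by all 6 groups.

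The members and gene lists were chosen with earlier results of these data known, so calls and p-values of the pathway genes are a description. The genes named were the listed genes, the called genes of the pathway lists and their most abundant members, and Rxra, Rxrb, Stra8, Cdx1 and Aldh1a7 were named after their values were seen. A few genes that this rule names are not reported here. Alternatives were another pseudocount, no filter, median-of-ratios size factors, rescaling to protein-coding genes, a constant prior variance, a fit of all 18 libraries, a looser limit, a replicate block and each replicate left out.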

Additional observations from a re-analysis of the deposited data

Results flagged for a closer look

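The KO over WT difference of Cyp1b1 itself differed between strains. The PRKO effect minus the PRBKO effect was -1.24 ± 0.23 on the log2 scale (limma interaction term over 18 libraries, adjusted p = 0.00118), or -0.93 against the median of all genes (-0.31), under the fold limit. This interaction was called for 3.75% of 14893 genes. In Cyp1b1, KO lay below WT in PRKO and the groups overlapped in PRBKO.

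The effect on Adh7 also differed between strains: the PRAKO effect minus the PRBKO effect was 1.83 ± 0.29 on the log2 scale (limma interaction term, adjusted p = 0.000737; 2.01% of all genes were called), with KO above WT in PRAKO and overlapping groups in PRBKO.

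For Rara, all 3 PRBKO KO libraries lay above all PRBKO WT libraries (log2 fold change 0.40) and all 3 PRKO KO libraries lay below all PRKO WT libraries (-0.28). Under the alternatives the value ranged from 0.09 to 0.47 in PRBKO and from -0.33 to -0.17 in PRKO, so its size depends on the processing. This difference between strains was not tested, since the gene was chosen with these contrasts known.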

How the results depend on the processing

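The depth of each library is unknown and 3 libraries a group set the precision. The cause of the changes below was not tested. Of 570 values of the listed genes under the alternatives, 30 had the other sign: 3 in PRKO (Aldh1a2), 6 in PRAKO (Aldh1a2, Rdh10, Rara), 12 in PRBKO (Aldh1a1, Aldh1a2, Rdh10, Dhrs3, Rarg), and 9 between WT groups. Cyp26b1 ranged from 1.05 to 1.38 in PRKO, 2.08 to 3.07 in PRAKO and 0.34 to 0.77 in PRBKO, and fell under the filter in PRAKO when a KO library was left out. The sign turns between WT groups were Rarg between PRAKO WT and PRKO WT (0.0343 with size factors), Rara between PRBKO WT and PRKO WT (-0.12 with size factors, -0.0899 rescaled to protein-coding genes) and, between PRBKO WT and PRAKO WT, Aldh1a1 (-0.0201), Aldh1a2 (-0.154, -0.0915 and -0.0044) and Rdh10 (-0.106 and -0.0375), none of them called. Cyp1b1 turned in PRBKO (-0.0399 rescaled). The PRAKO call of Bhlhe40 was lost with either rescaling (0.89 each).

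An adjusted p of at most 0.05 with no fold limit gave 1385, 4797 and 498 genes in PRKO, PRAKO and PRBKO, in place of 297, 285 and 19, and 8, 14 and 2 pathway genes, in place of 2, 3 and 0. The PRBKO count was 4 with no filter, 3 with size factors, 8 rescaled and 38 in the fit of all 18 libraries. In PRKO, 1 pathway gene was called with no filter and 1 with a constant prior. Without PRKO KO replicate 2 and PRKO WT replicate 3 together, a choice made after seeing the data, 113 genes and 1 pathway gene were called. Of the listed genes, 1 was called between PRAKO WT and PRKO WT with a pseudocount of 1 or with size factors, and 0 between PRBKO WT and PRKO WT with a pseudocount of 1, in place of 2 and 1.

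With a replicate left out, 209 to 286 genes were called in PRKO, 242 to 279 in PRAKO and 4 to 63 in PRBKO, and 1 to 3, 3 to 3 and 0 to 1 pathway genes. PRBKO counts were 4 without KO replicate 1, 49 without KO replicate 3, and 38, 60 and 63 without WT replicate 1, 2 and 4, and the PRBKO pathway call came without WT replicate 4. The 3 PRKO pathway calls came without KO replicate 2, and leaving out any other library gave 1. Of the listed genes 1 to 2, 0 to 1 and 0 to 0 were called between PRAKO WT and PRKO WT, PRBKO WT and PRKO WT, and PRBKO WT and PRAKO WT.

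Deviations of same-numbered libraries from their group means were little correlated over genes (-0.15 to 0.148). Such a correlation cannot see a shift shared by all genes of a library, so it does not settle whether the numbers are pairs. The numbers were not taken as pairs. With the replicate block, 464 genes were called in PRAKO and 302 in PRBKO, in place of 285 and 19. The block gave 1 pathway gene in PRKO and 1 in PRBKO.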
